A study of Mus musculus with 28 samples.

Results

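Glycolysis turns glucose into pyruvate in the cytosol, and lactate dehydrogenase then turns pyruvate into lactate or lactate back into pyruvate. Several of its steps are catalysed by isoforms from separate genes that differ in tissue distribution and regulation, so cells can change the enzyme at a step without changing the step. Mouse pluripotent cells are known for a high glycolytic rate, and fibroblasts lean more on mitochondrial respiration. The account below covers 10 genes chosen by symbol: the hexokinases Hk1 and Hk2, the phosphofructokinases Pfkl and Pfkp, the aldolases Aldoa and Aldoc, phosphoglycerate kinase Pgk1, enolase Eno1, and the lactate dehydrogenase subunits Ldha and Ldhb. Of these 10, 9 were measured among the 11807 genes of the main table. Eno1 had no probe set annotated to its symbol alone and was not analysed here.

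The study followed mouse embryonic fibroblasts (MEFs) through reprogramming into induced pluripotent stem (iPS) cells on expression microarrays. All cells came from E13.5 embryos of a C57BL6/129 strain whose cells carry, in 1 or 2 copies, a doxycycline-inducible OKSM cassette (Oct4, Klf4, Sox2 and c-Myc) and the Rosa26-M2rtTA allele, and the reprogramming medium held serum, LIF and doxycycline. The labels do not say which arrays came from cells with 1 copy and which from cells with 2. The main table had 24 arrays in 15 groups. The iPS cells, freed of feeder cells by preplating, had 3 arrays (1-3, 1-5 and 1-6), and a day 12 fraction positive for SSEA1 and for GFP had 1. On days 3, 6, 9 and 12 of induction cells were sorted by flow cytometry into an SSEA1+ fraction, a fraction negative for Thy1 and SSEA1 (here double-negative) and a Thy1+ fraction. Thy1 is a fibroblast surface protein, SSEA1 is a surface sugar of mouse pluripotent cells, and the labels do not name the gene that GFP reports. Each fraction had 2 arrays on days 3 and 6 (M2 and M3) and 1 array on days 9 and 12 (M2). Uninduced MEFs, Thy1+ and SSEA1-negative, had 2 arrays. A second array design held day 6 SSEA1+ cells split by EpCAM, an epithelial adhesion protein, into EpCAM+ and EpCAM- cells with 2 arrays each. Groups of sorted cells are selected survivors of a mixed culture, and fewer cells of a type and less RNA per cell cannot be told apart in such bulk samples.

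Values are log2 signals per probe set, so a difference of 1 is a 2-fold difference. Signals of different probe sets are not on one scale, and no gene's level is set against another's. Differences were tested with limma across all genes, and those with an adjusted p under 0.05 (Benjamini-Hochberg) are called passed. Nothing in the labels says that M2 and M3, or the iPS arrays, are separate animals or cultures. The p-values therefore measure only how far these arrays scatter, and that scatter may be technical. The day 6 Thy1+ M2 array stood apart: its Gapdh probe sets differed by 1.78 between the 3′ and 5′ ends, against 0.58 to 1.11 on the other 23 arrays. The root mean square SD within day 6 Thy1+ cells was 0.46, against 0.11 to 0.24 in the other replicated groups. That group enters every pooled SD given below and widens it for some genes, so counts of steps above a pooled SD depend on it. Signals of 8 pluripotency markers averaged 11.36 per marker in iPS cells and 4.53 in MEFs, and those of the 6 measured of 8 fibroblast markers averaged 7.31 in iPS cells and 12.26 in MEFs, as the names of both groups imply.

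The start sites of 5 genes are shown because 4 of them, Hk2, Pfkp, Aldoc and Ldhb, had the higher signals in iPS cells described below, while Ldha, the partner of Ldhb, did not. Each line gives the 250 bases before the first start listed by RefSeq on GRCm38.p6, written 5′ to 3′ on the gene's strand. Capitals mark ACGTG or GCGTG on either strand, the core letters of the element bound by the hypoxia factor HIF1. Every CACGTG, the E-box letters read by Myc proteins, counts as an ACGTG on each strand.
Hk2, chr6:82774455-82774704, minus strand: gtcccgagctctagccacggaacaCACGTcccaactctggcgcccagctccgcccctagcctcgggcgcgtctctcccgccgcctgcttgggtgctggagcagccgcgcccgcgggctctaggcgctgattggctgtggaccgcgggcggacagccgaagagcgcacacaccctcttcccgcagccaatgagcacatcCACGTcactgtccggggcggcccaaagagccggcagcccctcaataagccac
Pfkp, chr13:6648772-6649021, minus strand: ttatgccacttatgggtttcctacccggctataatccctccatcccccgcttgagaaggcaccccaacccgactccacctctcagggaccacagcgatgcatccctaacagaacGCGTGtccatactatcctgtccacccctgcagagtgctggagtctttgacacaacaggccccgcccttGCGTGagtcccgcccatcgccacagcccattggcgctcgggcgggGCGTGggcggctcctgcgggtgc
Aldoc, chr11:78322823-78323072, plus strand: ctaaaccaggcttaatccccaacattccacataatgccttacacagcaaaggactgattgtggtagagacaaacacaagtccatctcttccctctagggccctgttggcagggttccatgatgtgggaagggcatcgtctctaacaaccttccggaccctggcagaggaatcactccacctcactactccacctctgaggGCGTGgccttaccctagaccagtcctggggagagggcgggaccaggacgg
Ldhb, chr6:142507958-142508207, minus strand: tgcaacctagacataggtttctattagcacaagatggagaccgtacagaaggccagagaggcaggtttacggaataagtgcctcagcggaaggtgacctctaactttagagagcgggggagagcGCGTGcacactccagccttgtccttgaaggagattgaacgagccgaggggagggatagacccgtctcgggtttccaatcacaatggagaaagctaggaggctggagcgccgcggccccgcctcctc
Ldha, chr7:46845554-46845803, plus strand: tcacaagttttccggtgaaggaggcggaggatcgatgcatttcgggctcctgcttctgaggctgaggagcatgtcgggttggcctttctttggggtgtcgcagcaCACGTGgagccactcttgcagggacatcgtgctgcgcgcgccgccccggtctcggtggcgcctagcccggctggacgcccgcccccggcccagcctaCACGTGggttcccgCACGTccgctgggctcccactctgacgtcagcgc
ACGTG occurred 2 times in the Hk2 window and 5 times in the Ldha window, where 4 of the 5 came from 2 E-box matches. The Pfkp window held GCGTG 3 times, and the Aldoc and Ldhb windows held it 1 time each. All 10 genes matched the RefSeq table with 17 starts, and 15 of these windows held a core. The exceptions were the first listed starts of Hk1 and of Aldoa. The other 2 windows of Aldoa overlap and share 1 match. Of the Eno1 windows 2 overlap as well and hold GCGTG 2 times each, so the 15 windows are not all separate. Among windows of the same length before 32851 listed starts, 38.6% held ACGTG or GCGTG, 16.6% held ACGTG, 28.2% held GCGTG and 6.02% held CACGTG. These matches describe letters in a window and were not tested for binding.

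Hexokinase, the first enzyme of the pathway, phosphorylates glucose and traps it in the cell. Hk2, the inducible isoform of muscle, fat and many proliferating cells, was higher in iPS cells. Its log2 signal was 12.01, 11.79 and 11.38 on the iPS arrays, against 9.95 and 9.90 on the MEF arrays. Every iPS array lay above both MEF arrays, and the difference was 1.80 ± 0.16 (SE), 3.48-fold (limma, adjusted p = 2.34e-07). The gene occupies chr6:82725025-82774454.

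Most of that distance was already there on day 3. Hk2 stood at 11.09 and 11.12 in day 3 SSEA1+ cells, at 10.96 and 10.93 in double-negative cells and at 10.91 and 10.85 in Thy1+ cells, against 9.95 and 9.90 in MEFs. The fractions then parted. In SSEA1+ cells the signal was 11.21 and 11.11 on day 6, 11.27 on day 9 and 11.20 on day 12. In Thy1+ cells it was 10.88 and 10.49 on day 6, 10.44 on day 9 and 10.02 on day 12, the last within 0.09 of the MEF mean. Double-negative cells lay between the other fractions on all 4 days. Across the 15 groups, Hk2 ran from MEFs at the bottom over the 4 Thy1+ groups to iPS cells at the top, and 4 of the 14 steps between neighbours exceeded its pooled SD of 0.15.

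Hk1, the isoform that most tissues express, ran the other way. The iPS arrays gave 8.54 (1-3), 7.91 (1-5) and 7.91 (1-6), and the MEF arrays 8.51 and 8.58. The group ranges overlapped because array 1-3 lay at the MEF level, and the difference of -0.42 ± 0.19 did not pass (limma, adjusted p = 0.0727). Without array 1-3 it was -0.63 and passed (adjusted p = 0.00374), and a second, dimmer probe set of Hk1 gave 0.09. In SSEA1+ cells Hk1 was 8.13 and 8.17 on day 3, 7.82 and 8.12 on day 6, 7.66 on day 9 and 7.48 on day 12. In Thy1+ cells it was 8.39 and 8.52 on day 3, 8.70 and 8.22 on day 6, 8.32 on day 9 and 8.05 on day 12. SSEA1+ arrays were below Thy1+ arrays within each day. The lowest signal of the table, 6.58, came from the single day 12 GFP+ array, 0.90 below the next group. The gene occupies chr10:62268855-62379920.

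**Figure D1:**
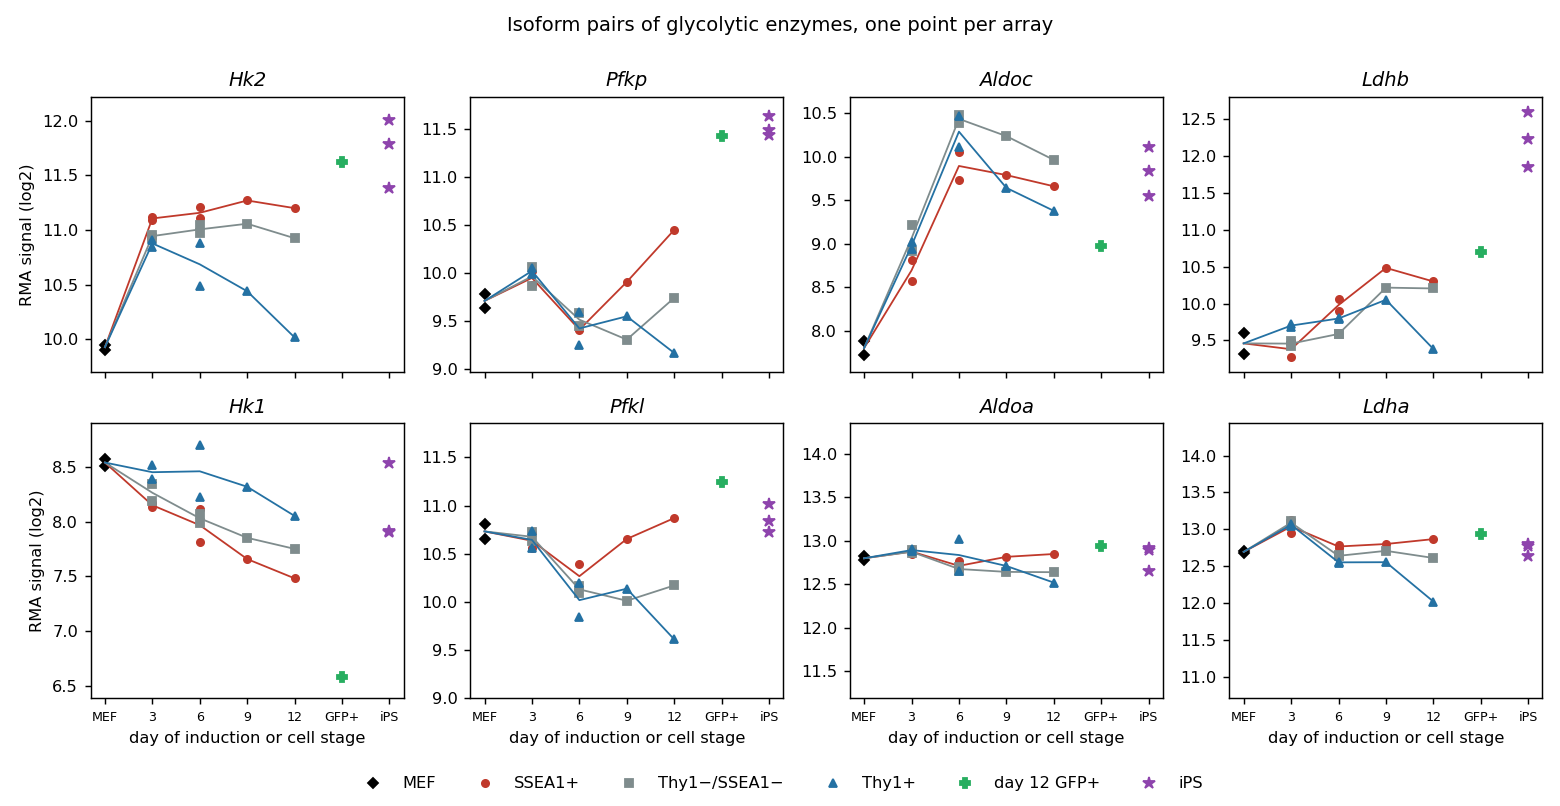
Log2 signal of 8 isoforms on the 24 arrays, 1 point per array and 1 panel per gene, with upper and lower panels forming the pairs; lines join group means of a fraction from MEFs over days 3, 6, 9 and 12. Hk2, Pfkp, Aldoc and Ldhb (upper row) are higher in the 3 iPS arrays than in both MEF arrays, and Thy1+ cells of day 12 have the lowest points of Pfkl, Pfkp, Aldoa and Ldha.

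Phosphofructokinase commits glucose to glycolysis. The platelet isoform Pfkp gave 11.43 (1-3), 11.48 (1-5) and 11.63 (1-6) on the iPS arrays, against 9.78 and 9.63 on the MEF arrays. The arrays did not overlap, and Pfkp was higher in iPS cells by 1.81 ± 0.13, 3.50-fold (limma, adjusted p = 1.92e-08). Through day 9 no sorted group's mean was above 10.02, the day 3 Thy1+ mean, and day 6 arrays lay between 9.25 and 9.59. On day 12 the signal was 11.42 in GFP+ cells, 10.45 in SSEA1+ cells, 9.74 in double-negative cells and 9.17 in Thy1+ cells. The day 12 groups thus span nearly the whole range of the 15 group means, 2.35 in all, and 5 of the 14 steps between neighbours exceeded the pooled SD of 0.12. Pfkp occupies chr13:6579874-6649060.

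The liver isoform Pfkl gave 10.84, 11.02 and 10.73 on the iPS arrays, against 10.81 and 10.66 on the MEF arrays. These overlap, and the difference of 0.13 ± 0.14 did not pass (limma, adjusted p = 0.462). Between both end points the day 6 arrays were all lower, at 9.84 to 10.39, and later days split by fraction. In SSEA1+ cells it was 10.71 and 10.56 on day 3, 10.14 and 10.39 on day 6, 10.65 on day 9 and 10.87 on day 12. In Thy1+ cells it was 10.55 and 10.73 on day 3, 9.84 and 10.19 on day 6, 10.14 on day 9 and 9.61 on day 12. Both phosphofructokinases therefore separated the day 12 SSEA1+ and Thy1+ arrays by a similar amount, 1.26 for Pfkl and 1.28 for Pfkp. The highest Pfkl signal, 11.24, was that of GFP+ cells. Pfkl occupies chr10:77986947-78009807.

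Aldolase splits the 6-carbon sugar into 2 triose phosphates. Aldoc, best known from brain, gave 10.11 (1-3), 9.84 (1-5) and 9.55 (1-6) on the iPS arrays, against 7.88 and 7.72 on the MEF arrays. The groups were apart by 2.04 ± 0.18, 4.10-fold (limma, adjusted p = 1.53e-07). Its highest group was double-negative cells of day 6. Double-negative cells of day 6 gave 10.39 and 10.49, Thy1+ cells of day 6 gave 10.47 and 10.11, and SSEA1+ cells of day 6 gave 9.74 and 10.05. On day 3 the arrays lay between 8.57 and 9.21, and on day 12 at 8.97 in GFP+ cells, 9.66 in SSEA1+ cells, 9.96 in double-negative cells and 9.38 in Thy1+ cells. MEFs were the lowest group, and 5 of the 14 steps between neighbours exceeded the pooled SD of 0.19. The probe sets of Aldoc disagree. The second, with a mean signal of 5.82 against 9.48 for the one used, gave -0.50 between iPS cells and MEFs, which did not pass (adjusted p = 0.0867 over all probe sets), and with the mean of both the day 3 SSEA1+ rise was 0.43 and did not pass (adjusted p = 0.051). Aldoc occupies chr11:78323073-78327781.

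Aldoa, the isoform of muscle and of most growing cells, hardly varied on the probe set used. Its iPS arrays gave 12.89, 12.65 and 12.92, against 12.82 and 12.77 for MEFs, a difference of 0.02 ± 0.13 that did not pass (limma, adjusted p = 0.900). All 24 arrays lay between 12.52 and 13.02, the upper value from the day 6 Thy1+ M2 array. Of the 14 steps between neighbouring groups, 1 exceeded the pooled SD of 0.11. That step was the gap below day 12 double-negative cells, since Thy1+ cells of day 12 were lowest. Other, similarly bright probe sets of Aldoa gave 0.31, 0.15 and 0.08 between iPS cells and MEFs. The difference of 0.31 just passed (limma, adjusted p = 0.0499 over all probe sets). Over the 24 arrays Aldoa averaged 12.79, Pgk1 12.76 and Ldha 12.77, and the highest signal of any probe set was 13.96. Whether signals this high narrow the differences seen was not tested. Aldoa occupies chr7:126795234-126800994.

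Pgk1 makes the first ATP of the pathway and has no paired isoform here. Its iPS arrays gave 12.76, 12.46 and 12.66, against 12.69 and 12.76 for MEFs, overlapping groups with a difference of -0.10 ± 0.13 (limma, adjusted p = 0.541). The 6 day 3 arrays lay between 12.84 and 12.98, all above both MEF arrays, but the differences from MEFs of 0.20 in SSEA1+, 0.22 in double-negative and 0.18 in Thy1+ cells did not pass. GFP+ cells were the highest group at 12.97 and Thy1+ cells of day 12 the lowest at 12.32. Pgk1 occupies chrX:106187100-106203699.

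Lactate dehydrogenase is a tetramer of A and B subunits. The B subunit, from Ldhb, is the heart form that favours pyruvate as the product. Ldhb gave 12.60 (1-3), 12.23 (1-5) and 11.85 (1-6) on the iPS arrays, against 9.60 and 9.32 on the MEF arrays. The lowest iPS array was above the highest MEF array by more than 2 log2 units, and the difference was 2.77 ± 0.17, 6.81-fold, the largest of the 9 genes (limma, adjusted p = 5.20e-09). A second probe set gave 3.10. On day 3 no fraction's Ldhb differed from MEFs past the threshold: SSEA1+ arrays gave 9.49 and 9.27, double-negative arrays 9.42 and 9.49, and Thy1+ arrays 9.68 and 9.72. SSEA1+ cells then gave 9.90 and 10.06 on day 6, 10.48 on day 9 and 10.30 on day 12, and GFP+ cells 10.69. The step between GFP+ cells and iPS cells, 1.53, was the widest between neighbouring groups. Ldhb occupies chr6:142490249-142507957.

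The A subunit, from Ldha, is the muscle form that favours lactate. Ldha gave 12.77, 12.63 and 12.80 on the iPS arrays, against 12.70 and 12.68 on the MEF arrays, a difference of 0.04 ± 0.10 that did not pass (limma, adjusted p = 0.765). Its highest groups were the 3 fractions of day 3, with 13.12 and 12.95 in SSEA1+ cells, 13.11 and 13.07 in double-negative cells and 13.08 and 13.04 in Thy1+ cells. From day 6 the SSEA1+ arrays lay between 12.74 and 12.87 and the Thy1+ arrays between 12.02 and 12.56, without overlap. Ldha had the smallest pooled SD of the 9 genes, 0.06, and 5 of its 14 steps between neighbouring groups exceeded it. Ldha occupies chr7:46842274-46855627.

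Between iPS cells and MEFs, 4 of the 9 genes passed, all of them higher, where 56.1% of all genes passed and 28.9% passed as higher. All 4 also differed by at least 2-fold, as 15.4% of all genes did upward. The share of these enzymes that passed was thus below that of all genes, and the median difference was 0.13 over the 9 genes and 0.01 over all genes. On the probe sets used, the 4 that passed are 1 of each isoform pair. Within each array the difference between isoforms of a pair removes what both share. From MEFs to iPS cells this difference shifted toward Hk2 over Hk1 by 2.22 ± 0.27, toward Pfkp over Pfkl by 1.68 ± 0.13, toward Aldoc over Aldoa by 2.01 ± 0.17 and toward Ldhb over Ldha by 2.73 ± 0.17. All 4 shifts passed (limma, adjusted over 11811 features, highest adjusted p = 5.06e-06). The shifts follow from the gene differences above and are no separate evidence. Array quality signs differed between these groups too. The 18S ribosomal control signal was 10.64 to 11.01 on iPS arrays and 12.02 and 12.00 on MEF arrays. The 3′ minus 5′ difference was 0.58 to 0.66 against 0.87 and 0.94 for Gapdh, and 1.04 to 1.18 against 0.81 and 0.84 for Actb. Their part was not tested.

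**Figure D2:**
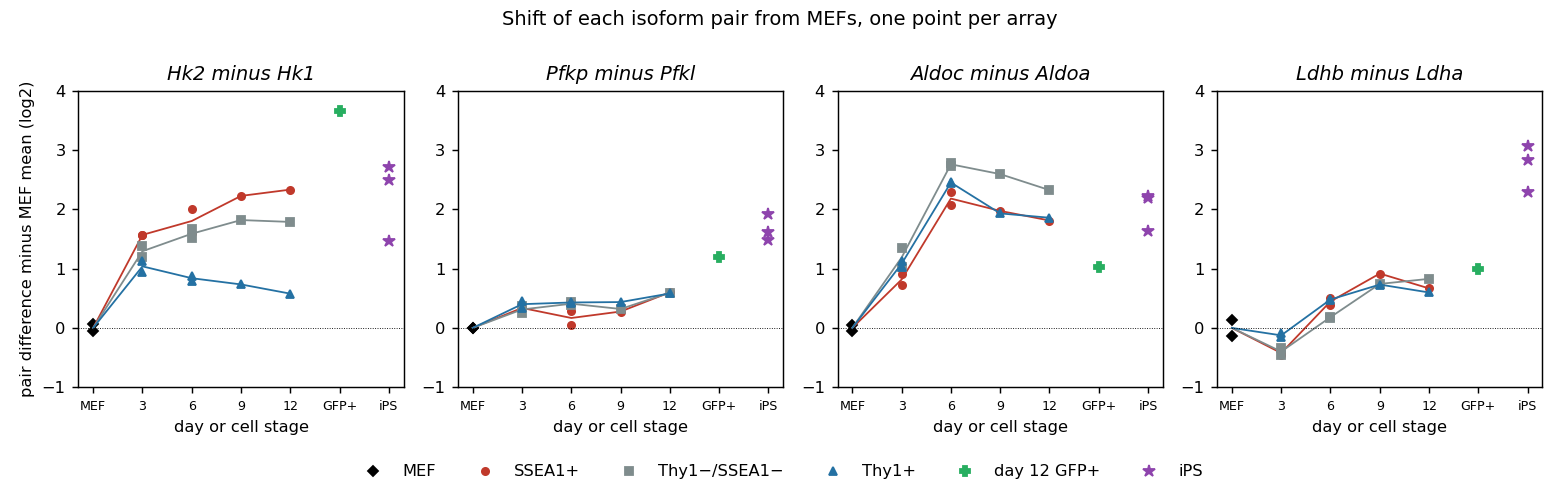
Change of the log2 difference within each isoform pair from its MEF mean, 1 point per array, by day of induction or cell stage. All 3 iPS arrays lie above 0 in every panel; Hk2 minus Hk1 parts by fraction from day 3 on, Aldoc minus Aldoa peaks on day 6, and Ldhb minus Ldha is higher in iPS cells than in any sorted group.

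Which pairs passed differed between the stages compared, but no test set the timing of one pair against another's. By day 3 in SSEA1+ cells, Hk2 minus Hk1 had shifted by 1.57 ± 0.29 and Aldoc minus Aldoa by 0.82 ± 0.19, and both passed (limma, adjusted p = 7.22e-04 and 0.00314). The shifts of Pfkp minus Pfkl, 0.34, and of Ldhb minus Ldha, -0.42, did not pass. With only the compared groups in the fit both passed (limma, adjusted p = 0.0146 and 0.0127). In Thy1+ cells of days 9 and 12, against MEFs, Aldoc minus Aldoa had shifted by 1.90, Ldhb minus Ldha by 0.66 and Pfkp minus Pfkl by 0.51, and all 3 passed, while Hk2 minus Hk1 at 0.66 did not (limma, adjusted p = 0.136). Leaving out a single MEF or late Thy1+ array left 1 or 2 of those 3 shifts past the threshold. Aldoc minus Aldoa is open to the probe-set disagreement above: with the mean of all probe sets its day 3 shift was 0.33 and did not pass (adjusted p = 0.223).

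The 3 day 3 comparisons set sorted cells of day 3 of induction against uninduced MEFs, and they share the same 2 MEF arrays. Factor expression, time in culture and any difference in medium were not varied separately, so their parts cannot be told apart. In SSEA1+ cells 3 of the 9 genes passed, where 34.4% of all genes did, in double-negative cells 3 did, where 27.2% did, and in Thy1+ cells 3 did, where 23.8% did. In each fraction these were Hk2, Aldoc and Ldha, all higher, where 17.4%, 13.7% and 12% of all genes passed as higher in those 3 comparisons. Hk2 differed from MEFs by 1.18 ± 0.18 in SSEA1+ cells, by 1.02 ± 0.18 in double-negative cells and by 0.95 ± 0.18 in Thy1+ cells. Aldoc differed by 0.89 ± 0.19, 1.26 ± 0.19 and 1.18 ± 0.19 in the same fractions. Ldha differed by 0.34 ± 0.11, 0.40 ± 0.11 and 0.37 ± 0.11 (limma, adjusted p between 0.0159 and 0.0273). The Ldha calls rest on few arrays. Without either MEF array none of them passed, and the differences stayed between 0.33 and 0.41. Leaving out any 1 double-negative or Thy1+ array of day 3 also ended the call in that fraction, as did leaving out the M2 array of SSEA1+ cells (0.26, adjusted p = 0.214). The 18S ribosomal control signal moved with this contrast, at 9.99 to 10.62 on day 3 arrays and 12.02 and 12.00 on MEF arrays, and its part was not tested.

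**Figure D3:**
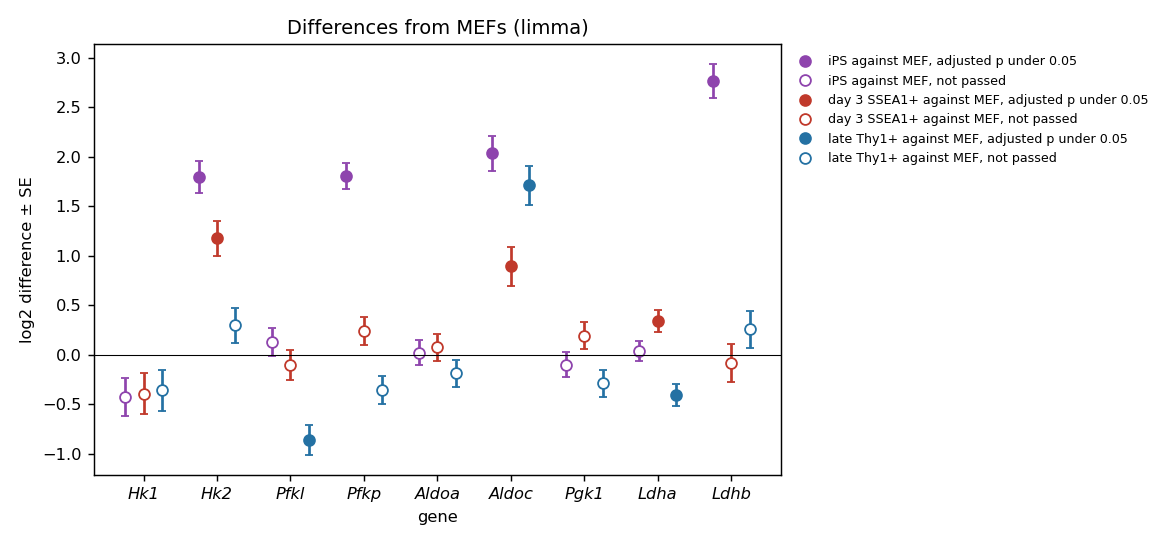
Log2 difference from MEFs (± SE, limma) of the 9 genes in iPS cells, day 3 SSEA1+ cells and Thy1+ cells of days 9 and 12; filled points passed at adjusted p under 0.05. Filled points above 0 are Hk2 and Aldoc at day 3 and in iPS cells, and Pfkp and Ldhb in iPS cells alone. Ldha at day 3 and Aldoc in late Thy1+ cells are also filled above 0. Filled points below 0 are Pfkl and Ldha in late Thy1+ cells. The 3 contrasts share the MEF arrays.

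Between SSEA1+ and Thy1+ cells with day as a covariate, 4 of the 9 genes passed, 3 higher and 1 lower, where 39.4% of all genes passed, 19.9% higher and 19.5% lower. Hk2 was higher in SSEA1+ cells by 0.57 ± 0.12 (limma, adjusted p = 9.76e-04) and Hk1 was lower, with a difference of -0.47 ± 0.09 (adjusted p = 5.99e-04). Pfkl was higher by 0.38 ± 0.14 (adjusted p = 0.0413) and Ldha by 0.25 ± 0.09 (adjusted p = 0.0470). None reached 2-fold, as 8.57% of all genes did. Hk2 was the 1 gene of the 9 with every SSEA1+ array above every Thy1+ array on all 4 days, a pattern of 15.2% of all genes, and Hk1 the 1 gene with every SSEA1+ array below, as were 14.1% of all genes. The Hk2 minus Hk1 pair differed by 1.04 ± 0.14 (adjusted p = 4.89e-05), and the other 3 pairs by -0.13 (Pfkp minus Pfkl), -0.18 (Aldoc minus Aldoa) and -0.07 (Ldhb minus Ldha), which did not pass. The Pfkl and Ldha calls are not stable to single arrays: without the day 12 Thy1+ array Pfkl was at 0.24 (adjusted p = 0.136) and Ldha at 0.14 (adjusted p = 0.142).

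The fractions were also compared day by day. SSEA1+ means lay above Thy1+ means for 2 of the 9 genes on day 3, 4 on day 6, 8 on day 9 and 8 on day 12, where 55.9%, 44.5%, 56.5% and 53.1% of all genes did on those days. The median difference of the 9 genes was -0.02, -0.01, 0.25 and 0.85 on days 3, 6, 9 and 12. Hk1 was the gene below 0 on days 9 and 12. On day 12 the differences ran from -0.57 for Hk1 to 1.28 for Pfkp, with 1.18 for Hk2, 0.92 for Ldhb, 0.85 for Ldha, 0.52 for Pgk1, 0.33 for Aldoa and 0.28 for Aldoc. These are single arrays, and that day's Thy1+ array gave the lowest of the 15 group means for 5 of the 9 genes, Pfkl, Pfkp, Aldoa, Pgk1 and Ldha, where 9.66% of all genes were lowest there. On that array the 3′ and 5′ probe sets of Gapdh differed by 1.11, the widest gap after the day 6 Thy1+ M2 array, and the day 12 SSEA1+ array gave 0.83. The part of this RNA quality sign in the day 12 differences was not tested.

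A test of change with time set the SSEA1+ minus Thy1+ difference of days 9 and 12 against that of days 3 and 6. Pfkp passed, at 0.82 late and -0.04 early, a change of 0.86 ± 0.17 (limma, adjusted p = 0.00514). Pfkl passed as well, at 0.89 late and 0.12 early, a change of 0.77 ± 0.19 (adjusted p = 0.0169). These 2 of the 9 genes compare with 10.2% of all genes in either direction and 4.76% upward. Leaving out either the SSEA1+ or the Thy1+ array of day 12 takes that day out of the comparison, so both settings give the same result. With day 9 alone as the late day, the change was 0.40 for Pfkp and for Pfkl, and neither passed. Ldha at 0.45 (adjusted p = 0.0517), Ldhb at 0.74 (adjusted p = 0.0609) and Hk2 at 0.66 (adjusted p = 0.0744) lay just outside the threshold. Fibroblast markers moved along, with means per marker of 9.13, 9.85, 9.27 and 8.68 in SSEA1+ cells over the 4 days, against 10.43, 11.40, 11.57 and 11.69 in Thy1+ cells. Pluripotency markers did so by day 12, at 8.67 per marker in SSEA1+ cells and 5.49 in Thy1+ cells. Their part in the enzyme differences was not tested.

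**Figure D4:**
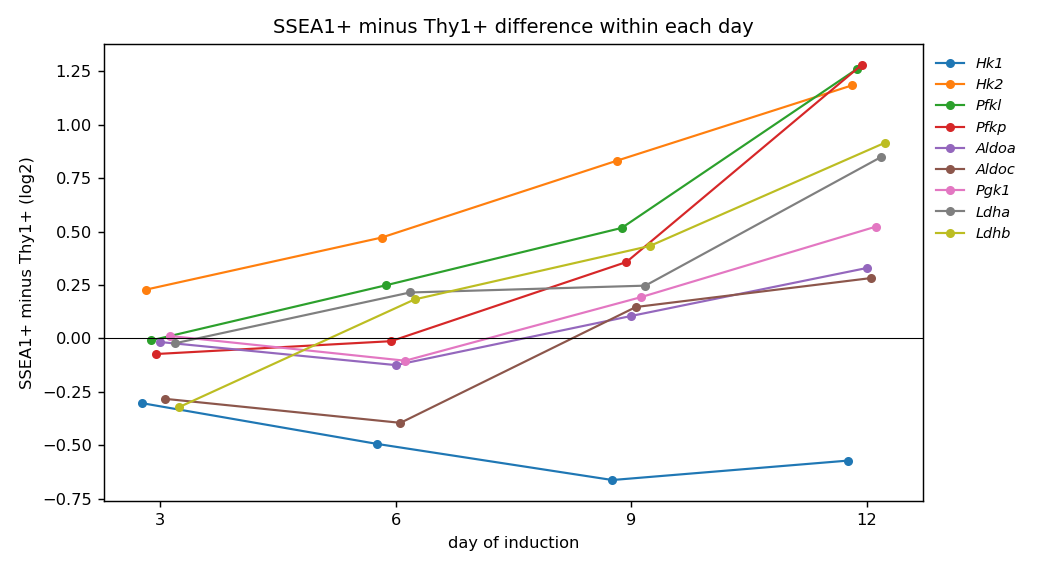
SSEA1+ minus Thy1+ difference of the log2 group means for 9 genes on days 3, 6, 9 and 12, 1 line per gene, each slightly offset along the day axis; days 9 and 12 rest on 1 array per fraction. On day 12 every gene but Hk1 is above 0, with Pfkp at 1.28 and Pfkl at 1.26.

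Thy1+ cells of days 9 and 12 are those that kept the fibroblast marker under the factors. Against MEFs, 3 of the 9 genes passed, 1 higher and 2 lower, where 21.8% of all genes passed, 11.1% higher and 10.8% lower. Aldoc was higher by 1.71 ± 0.19 (limma, adjusted p = 1.45e-05). Pfkl was lower, with a difference of -0.86 ± 0.15 (adjusted p = 8.60e-04), and both late arrays, 10.14 and 9.61, lay below both MEF arrays. Ldha was lower, with a difference of -0.41 ± 0.11 (adjusted p = 0.0171), but without the day 12 array it was -0.14 (adjusted p = 0.602). Hk2 at 0.30 and Ldhb at 0.26 did not pass. The median difference was -0.29 over the 9 genes and 0.04 over all genes.

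Late SSEA1+ cells, those of days 9 and 12, were set against day 3 SSEA1+ cells, and 2 of the 9 genes passed, both higher, where 12.2% of all genes passed and 6.85% were higher. Aldoc was higher by 1.03 ± 0.19 (limma, adjusted p = 0.00244), with 9.79 and 9.66 on the late arrays against 8.82 and 8.57 on the day 3 arrays. Ldhb was higher by 1.01 ± 0.19 (adjusted p = 0.00264). With the mean of both probe sets Aldoc was at 0.48 and did not pass (adjusted p = 0.063). Hk2 at 0.13, Pfkl at 0.13 and Pfkp at 0.23 did not pass, nor did Hk1 at -0.58 (adjusted p = 0.0891).

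GFP+ and SSEA1+ cells of day 12, both SSEA1-positive, had 1 array each, and the spread was taken from the replicated groups. Of the 9 genes 1 passed, where 10.1% of all genes did and 3.94% did upward: Pfkp, higher in GFP+ cells by 0.97 ± 0.20 (limma, adjusted p = 0.00537). Hk1 at -0.90 (adjusted p = 0.0727) and Aldoc at -0.69 (adjusted p = 0.151) were the other sizeable differences. Pfkl, Aldoa and Pgk1 had their highest group mean in GFP+ cells, as 15.7% of all genes had, and Hk2, Pfkp and Ldhb theirs in iPS cells, as 19.3% of all genes had.

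From GFP+ to iPS cells 3 of the 9 genes passed, where 19.4% of all genes did, and all 3 were higher in iPS cells, as 9.14% of all genes were. Hk1 differed by 1.54 ± 0.24 (limma, adjusted p = 5.51e-04), with 8.54, 7.91 and 7.91 on the iPS arrays against 6.58 in GFP+ cells, and its second probe set gave 1.80. Ldhb differed by 1.53 ± 0.22 (adjusted p = 2.85e-04) and its second probe set by 1.65. Aldoc differed by 0.86 ± 0.22 (adjusted p = 0.0152), against 0.03 for its second probe set. The Aldoc call was lost with the mean of both probe sets (0.44, adjusted p = 0.102) and with only the compared groups in the fit (adjusted p = 0.0878). Hk2 at 0.10 ± 0.20 and Pfkp at 0.09 ± 0.16 did not pass. The single GFP+ array limits each of these values.

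Within day 6 SSEA1+ cells on the second array design, 1 of the 9 genes passed between EpCAM+ and EpCAM- cells, where 2.74% of 12394 genes did and 1.34% did downward. Aldoc was lower in EpCAM+ cells, at 8.80 and 8.89, against 9.45 and 9.33 in EpCAM- cells, a difference of -0.55 ± 0.09 (limma, adjusted p = 0.0418). The groups did not overlap, but the call was lost without any 1 of the 4 arrays (adjusted p between 0.184 and 0.289). The second Aldoc probe set gave 0.07, and with the mean of both the difference was -0.24 and did not pass (adjusted p = 0.262). Ldhb gave 10.04 and 9.95 in EpCAM+ cells, against 9.67 and 9.50 in EpCAM- cells, and the difference of 0.41 did not pass (adjusted p = 0.0959). Pfkl at 0.36 and Aldoa at 0.31 did not pass either. Hk2 gave 10.76 on both EpCAM+ arrays, against 10.78 and 10.75 on the EpCAM- arrays.

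Other genes of the pathway give the setting. Glucose enters through Slc2a transporters, and Slc2a3, the high-affinity neuronal and embryonic form, was higher in iPS cells than in MEFs by 3.85, more than any of the 9 enzymes. It averaged 12.75 ± 0.09 in iPS cells (SD, n = 3) and 8.90 ± 0.06 in MEFs (SD, n = 2). On day 3 it was above MEFs by 2.28 in SSEA1+, 1.66 in double-negative and 1.52 in Thy1+ cells, and it passed in all 3 (limma). No other transporter passed as higher on day 3, while 3 passed as lower in SSEA1+, 2 in double-negative and 3 in Thy1+ cells. Among all genes 34.4%, 27.2% and 23.8% passed in those comparisons, and 17.4%, 13.7% and 12% passed as higher. The list's medians were -0.19, -0.21 and -0.12. Of the 9 listed transporters, all measured, 5 were higher and 1 lower in iPS cells than in MEFs, where 56.1% of all genes passed and 28.9% were higher. Slc2a1, the widespread glucose transporter, was higher by 0.62 and the lactate transporter Slc16a1 by 1.42, while Slc16a7 differed by -2.01. The list's median in iPS cells was 0.55, against 0.01 for all genes.

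Among 17 other glycolytic enzyme genes 12 were measured, and 3 were higher and 1 lower in iPS cells than in MEFs, a smaller share than the 56.1% of all genes that passed. The higher ones were Ldhc, the testis lactate dehydrogenase (2.00), Pgam2, the muscle phosphoglycerate mutase (1.71), and pyruvate kinase Pkm (0.51), and the lower one was the muscle enolase Eno3 (-0.92). On day 3 in SSEA1+ cells 2 were higher than in MEFs and 1 lower, where 34.4% of all genes passed. The neuronal enolase Eno2 was lower there, by -1.17. In late against day 3 SSEA1+ cells 1 was higher and 2 lower, where 12.2% of all genes passed, and the list's median was -0.04. Eno2 was higher there by 2.28, and the 2 lower ones are not named. Between SSEA1+ and Thy1+ cells 2 of the 12 passed, both higher, where 39.4% of all genes passed. Pkm passed there at 0.34, and Gapdh was higher by 0.20. The late minus early change passed for 2, both higher, where 10.2% of all genes passed, with Pkm at 0.50.

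At the exit of the pathway, 3 of 9 measured genes for pyruvate entry into mitochondria were higher and 2 lower in iPS cells than in MEFs, with Pdhb, a subunit of pyruvate dehydrogenase, at 1.32. These 5 of 9 are near the 56.1% of all genes that passed. Between SSEA1+ and Thy1+ cells the pyruvate dehydrogenase subunits Pdha1 (0.28), Pdhb (0.58) and Dlat (0.51) were higher, and so was the inhibitory kinase Pdk1 (0.40), while the kinases Pdk2 (-0.99) and Pdk4 (-1.66) were lower. In day 3 SSEA1+ cells 3 of the 9 were higher than in MEFs and 2 lower, where 34.4% of all genes passed. Pyruvate carboxylase, Pcx, was at 2.17, Pdhb at 0.55 and Pdk1 at 0.53, while Pdk2 was at -1.20 and Pdk4 at -2.24. In the pentose phosphate branch 2 of 5 measured genes were higher and 1 lower in iPS cells, also near the 56.1% of all genes, with Taldo1 at 1.27.

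HIF1 is a known regulator of several glycolytic genes, and its list here holds other targets. Of 14 listed genes 12 were measured, and 2 were higher and 5 lower in iPS cells than in MEFs, with the peptide hormone Adm at -3.03 and the growth factor Vegfa at -1.23. On day 3 in SSEA1+ cells 2 were higher and 5 lower, with Adm at -3.30, Vegfa at -2.26 and the carbonic anhydrase Car9 at -1.81. Among all genes 56.1% passed between iPS cells and MEFs, near the share of this list, and 34.4% passed in day 3 SSEA1+ cells. Passed as higher were 28.9% and 17.4% of all genes in these 2 comparisons. The targets named here are lower ones only, and those that passed as higher are not named. The list's medians were -0.19 and -0.45, against 0.01 and 0.05 for all genes. Myc, whose probe set may also read the cassette, was higher by 2.20 in day 3 SSEA1+ cells than in MEFs and lower in iPS cells (-1.89), where Mycn (2.16) and Mycl (1.21) were higher. No link between these lists and the enzymes was tested.

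The genes whose group means ran most like those of a member were found by Pearson correlation over the 15 group means, which share libraries and days, and are given as a description. For Pfkp they were Grhpr (r = 0.977), Faf1 (0.970) and Cndp2 (0.969). For Hk1 they were Capns1 (0.970), Tle5 (0.956) and Adcy3 (0.956), and for Ldhb they were Edrf1 (0.960), Rnf208 (0.949) and Ybx2 (0.942). For Aldoc the values were lower, with Epb41l4a (0.902), Fam102a (0.888) and Cdkl2 (0.880). For Pgk1 they were Pcbp4 (0.936), Tpm3 (0.908) and Ldha (0.904), the 1 case in which a member was named for another.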

How the data were processed

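Per the submitters' processing notes, the authors made log2 signals per probe set with RMA, which corrects background, normalizes between arrays and summarises probes; no version is given. The deposited log2 values were used as they were, and the 2 tables were never compared. Each gene was represented by its 1-symbol probe set of highest mean signal. Tests used limma (version 3.58.1, R 4.3.3): a fit of 24 arrays and 15 group means (9 residual degrees of freedom), a fit of 18 sorted arrays with day and fraction (12), and a fit of the 4 EpCAM arrays (2). Isoform pair differences entered as 4 more features. Adjusted p-values are Benjamini-Hochberg over all genes. Groups of 1 array borrow the spread of replicated groups. On simulated data, 60% of genes changed by 0.75 and 96% of those changed by 1.5 on the log2 scale were recovered for iPS cells against MEFs, 31% and 79% for the late minus early change, and 14% and 70% for GFP+ against SSEA1+ cells. Precision is limited by how few arrays each group has. The correlation of M2 and M3 deviations between groups was -0.21 to 0.21, so replicate names were not taken as pairs. All listed members are named, while of the other pathway genes only some that passed are named, as examples. A further list, of regulators of glycolytic flux, was tested but is not described. Members and lists were chosen with earlier results of these data known. Leaving the day 6 Thy1+ M2 array out of every fit was an alternative chosen after seeing the data. Motif counts and figures used Python (3.11.15), matplotlib (3.10.9), numpy (2.4.6) and pandas (2.3.3).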

Additional observations from a re-analysis of the deposited data

Results flagged for a closer look

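The SSEA1+ minus Thy1+ difference changed between early (days 3 and 6) and late (days 9 and 12) samples for both phosphofructokinases, by the test of that change itself. The change was 0.77 for Pfkl and 0.86 for Pfkp on the log2 scale (limma, adjusted p = 0.0169 and 0.00514). Both rest on day 12. With day 9 alone as the late day, each change was 0.40 and did not pass.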

How the results depend on the processing

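No result changed direction past a threshold under any alternative run. With a 2-fold minimum, the counts of passing genes were 1 for day 3 SSEA1+, 1 for day 3 Thy1+ and 1 for late Thy1+ cells against MEFs, 0 for SSEA1+ against Thy1+, 0 for the late minus early change, 0 for GFP+ against SSEA1+ and 0 for EpCAM; pair counts were 1 for day 3 SSEA1+ and 1 for late Thy1+ cells. With the mean of all probe sets, pair counts were 1 (day 3 SSEA1+) and 2 (SSEA1+ against Thy1+), and gene counts 4 (late minus early), 2 (GFP+) and 0 (EpCAM). With only the compared groups in the fit, 4 pairs passed at day 3, and 7 genes in late Thy1+ cells and 2 between SSEA1+ and Thy1+ cells did. A trended robust prior gave 2 pairs between SSEA1+ and Thy1+ cells and 2 EpCAM genes. Quantile scaling gave 4 genes for the late minus early change. As reported, 4 genes of the EpCAM comparison had an unadjusted limma p under 0.05. The replicate block, for names that do not pair the samples, gave 0 EpCAM genes and left Ldha between SSEA1+ and Thy1+ cells at an adjusted p of 0.0558; the EpCAM deviations correlated at 0.03. When the M2 array of day 6 Thy1+ cells was dropped from the fits, 4 genes passed for the late minus early change and 2 for GFP+. In that setting Hk1 passed for iPS cells against MEFs (adjusted p = 0.0372) and late SSEA1+ cells (0.0345), Pfkp for day 3 Thy1+ (0.0474) and late Thy1+ cells (0.0294), and Pgk1 for iPS against GFP+ cells (0.0474), while Pfkl between SSEA1+ and Thy1+ cells was lost (0.0665).

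Leaving out 1 array at a time gave 4 to 5 genes for iPS cells against MEFs, 2 to 3 for day 3 SSEA1+, 2 to 2 for the other day 3 fractions, 2 to 4 for late Thy1+ cells (pairs 1 to 2), 2 to 2 for late SSEA1+ cells, 2 to 4 for SSEA1+ against Thy1+, 0 to 8 for the late minus early change, 3 to 3 for iPS against GFP+ cells and 0 to 0 for EpCAM. Pair counts for iPS cells, day 3 SSEA1+ cells and SSEA1+ against Thy1+ stayed at 4, 2 and 1. The cause of these shifts was not tested. Median scaling moved the median of all genes by at most 0.07. Groups of 1 array on days 9 and 12 limit what these data can show.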
